A study of Homo sapiens with 4 samples.

Results

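Epithelial and mesenchymal identity genes were examined for binding of BRD8, a bromodomain protein that belongs to the NuA4 (TIP60) complex, which acetylates histones, in colorectal cancer cells. The 35 genes were taken from a list of 25 epithelial genes (9 of adhesion and tight junctions, 9 regulators, and 7 keratins and differentiation products) and 10 mesenchymal genes (5 regulators and 5 structural or matrix genes), out of 19974 protein-coding genes on chromosomes 1 to 22 and X. The cells were HCT116 and SW480, both established lines from human colorectal cancers, with no treatment or engineered allele named. For each line there was 1 library of chromatin immunoprecipitated with a BRD8 antibody (ChIP-seq) and 1 of input chromatin. Each ChIP library has 1 deposited list of peaks at a q threshold of 0.05, and the most enriched base of a peak is its summit. A gene was counted when a summit lay within 1 kb of either gene end, or elsewhere inside the gene. With 1 ChIP library per line there is no replicate check and no test between lines, and RNA was not measured, so the epithelial or mesenchymal state of these cells was not checked.

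Epithelial cells of the gut are held together by adherens and tight junctions, and regulators such as CDX2, HNF4A and the KLF and GRHL factors maintain the genes of that identity. Mesenchymal cells lack the tight junctions of epithelium and make vimentin, N-cadherin and matrix proteins. The SNAI, ZEB and TWIST factors promote the passage from the first state to the second, and SNAI and ZEB proteins repress epithelial genes by binding E-boxes of the form CAGGTG.

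The HCT116 list held 22303 peaks and the SW480 list 12874, with median widths of 596 bp in HCT116 and 394 bp in SW480. The caller's fold, the ratio of ChIP signal to local background at the summit, had a median of 3.70 in HCT116 and 3.34 in SW480. All fold and −log10 q values below are the authors' own for each peak. Fold depends on the depth and input of a library, so values of the lines stand side by side.

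Sequences around 1 start each of 8 members are shown as examples of starts with a summit in HCT116 alone, in both lines or in neither. Each window runs from 250 bases before to 50 after an annotated start in RefSeq (GRCh38.p14), 5′ to 3′. OCLN, CLDN3, ELF3 and ZEB1 had a summit near the start in HCT116 alone, while TJP1, KLF5 and KRT8 had one in both lines, and GATA6 had none. The 4 windows of the first kind all hold an E-box and are not a fair sample. KLF4 and CDX2 had a HCT116 summit near a start without that motif, and KRT20 and HNF4A have it at a start without a summit. The ZEB1 window is that of the first annotated start, and the start nearest to the summit has no E-box. Capitals mark E-boxes (CAGGTG or its reverse complement CACCTG) and GC boxes (GGGCGG or CCGCCC), which SP and KLF factors bind.
OCLN (chr5:69492297-69492596, plus strand): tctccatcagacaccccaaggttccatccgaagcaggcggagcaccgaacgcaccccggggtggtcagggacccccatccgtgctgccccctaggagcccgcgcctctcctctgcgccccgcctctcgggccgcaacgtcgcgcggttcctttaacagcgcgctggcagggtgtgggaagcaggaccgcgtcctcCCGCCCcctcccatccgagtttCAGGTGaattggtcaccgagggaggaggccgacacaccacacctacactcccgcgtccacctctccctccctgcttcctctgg
CLDN3 (chr7:73770221-73770520, minus strand): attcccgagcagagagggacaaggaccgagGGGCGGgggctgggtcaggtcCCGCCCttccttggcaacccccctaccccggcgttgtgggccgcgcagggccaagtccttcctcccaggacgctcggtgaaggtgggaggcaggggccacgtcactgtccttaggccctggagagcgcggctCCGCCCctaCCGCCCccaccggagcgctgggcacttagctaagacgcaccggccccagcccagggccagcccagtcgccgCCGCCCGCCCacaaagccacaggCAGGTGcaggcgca
ELF3 (chr1:202010337-202010636, plus strand): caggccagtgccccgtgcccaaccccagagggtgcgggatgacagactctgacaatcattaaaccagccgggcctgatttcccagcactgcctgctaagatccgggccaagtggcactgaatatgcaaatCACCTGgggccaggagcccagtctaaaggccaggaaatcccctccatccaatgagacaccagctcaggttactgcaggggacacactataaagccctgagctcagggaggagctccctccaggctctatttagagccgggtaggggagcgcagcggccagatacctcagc
ZEB1 (chr10:31318167-31318466, plus strand): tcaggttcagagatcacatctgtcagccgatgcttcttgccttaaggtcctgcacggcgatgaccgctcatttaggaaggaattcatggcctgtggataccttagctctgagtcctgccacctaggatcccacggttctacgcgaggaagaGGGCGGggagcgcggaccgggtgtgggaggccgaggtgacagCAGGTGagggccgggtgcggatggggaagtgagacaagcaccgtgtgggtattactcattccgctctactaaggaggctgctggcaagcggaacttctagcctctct
TJP1 (chr15:29820625-29820924, minus strand): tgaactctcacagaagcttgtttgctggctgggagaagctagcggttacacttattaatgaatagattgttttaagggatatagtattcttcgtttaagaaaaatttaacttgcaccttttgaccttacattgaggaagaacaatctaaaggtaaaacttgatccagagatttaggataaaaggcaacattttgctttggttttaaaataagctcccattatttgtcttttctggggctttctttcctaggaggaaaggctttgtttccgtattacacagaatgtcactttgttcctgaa
KLF5 (chr13:73058755-73059054, plus strand): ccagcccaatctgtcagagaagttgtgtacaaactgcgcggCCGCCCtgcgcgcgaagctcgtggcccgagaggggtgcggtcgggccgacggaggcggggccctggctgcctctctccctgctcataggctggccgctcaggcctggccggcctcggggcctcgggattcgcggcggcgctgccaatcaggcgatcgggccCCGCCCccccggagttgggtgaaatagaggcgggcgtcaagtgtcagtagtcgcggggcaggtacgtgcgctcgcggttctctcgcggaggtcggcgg
KRT8 (chr12:52926420-52926719, minus strand): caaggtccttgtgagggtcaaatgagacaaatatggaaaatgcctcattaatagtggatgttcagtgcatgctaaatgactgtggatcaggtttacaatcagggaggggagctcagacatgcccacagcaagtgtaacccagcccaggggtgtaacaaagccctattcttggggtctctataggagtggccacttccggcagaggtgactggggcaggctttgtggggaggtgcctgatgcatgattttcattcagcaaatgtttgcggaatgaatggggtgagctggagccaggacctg
GATA6 (chr18:22169339-22169638, plus strand): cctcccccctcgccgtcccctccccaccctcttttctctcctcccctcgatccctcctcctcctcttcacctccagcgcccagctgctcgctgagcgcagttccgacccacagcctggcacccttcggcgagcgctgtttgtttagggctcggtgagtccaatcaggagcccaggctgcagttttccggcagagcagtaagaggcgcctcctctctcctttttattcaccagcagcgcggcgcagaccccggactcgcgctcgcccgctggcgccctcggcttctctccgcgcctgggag

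BRD8 summits at gene ends were found at 11 of 25 epithelial and 2 of 10 mesenchymal genes in HCT116. Over all protein-coding genes the share was 44.0% in HCT116, the same as the 44.0% of the epithelial genes and above the 20.0% of the mesenchymal genes. In SW480 gene-end summits were found at 0 of 25 epithelial genes and at 1 of 10 mesenchymal genes, SNAI1. All protein-coding genes had a share of 22.1% there. The epithelial share thus exceeded the mesenchymal share by 24 percentage points in HCT116 and was under it in SW480 (difference −10 points), where it rests on a single gene. With annotated starts in place of gene ends the SW480 difference was positive, 18.8 points. That count covers only the 22 members with a listed start and leaves out SNAI1, so the sets of genes differ. Genes are not replicates, and no test was made of these differences. A gene without a summit in a list may still carry BRD8 below the threshold of that list.

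**Figure D1:**
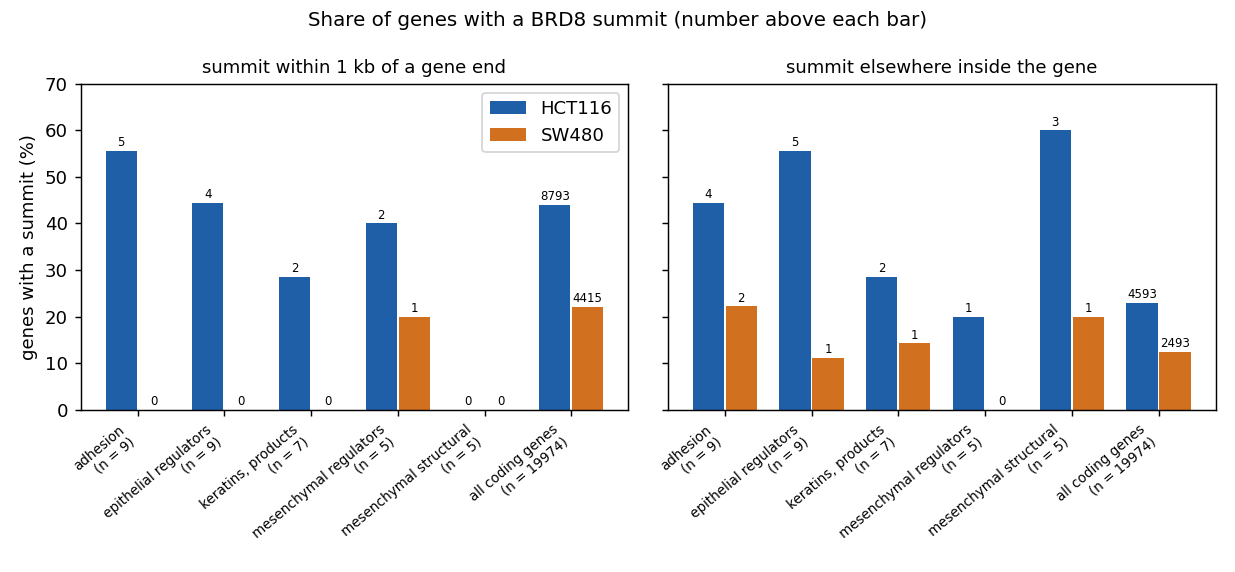
Percent of genes with a BRD8 summit within 1 kb of a gene end (left) or elsewhere inside the gene (right), in HCT116 (blue) and SW480 (orange), by role and for all protein-coding genes, with the number of genes above each bar. Gene-end summits reach 5 of 9 adhesion genes and 4 of 9 epithelial regulators in HCT116 and none of either in SW480.

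Adhesion genes had gene-end summits at 5 of 9 members in HCT116, against 44.0% of all protein-coding genes, and at 0 of 9 in SW480, against 22.1%. EPCAM, an epithelial cell adhesion molecule on chromosome 2 (47369311 to 47387020), had the highest gene-end fold of the group, 4.91 with a −log10 q of 13.1, from a peak 2081 bp wide whose summit lay 96 bp inside the lower gene end. A second EPCAM peak inside the gene, 2034 bp from that end, had a fold of 4.74. Both EPCAM peaks were present in HCT116 and absent from the SW480 list, where the nearest summit was 15771 bp away.

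The claudins, which form the strands of tight junctions, differed among themselves. CLDN3, on chromosome 7 (73768997 to 73770270), had a HCT116 summit 212 bp upstream of its start at a fold of 4.32. CLDN4, its neighbour on the same chromosome, had HCT116 summits 517 bp before and 640 bp beyond its upper end, which is its 3′ end, at folds of 1.89 and 3.92, and none within 1 kb of its start. Within the 1 kb window, CLDN3 and CLDN4 thus had HCT116 gene-end summits at opposite ends of the gene. CLDN4 is 1695 bp long, and the summit 517 bp before its upper end lay 1177 bp downstream of its start. Further HCT116 summits lay 1934, 3272 and 4288 bp upstream of the CLDN4 start, with folds from 2.41 to 3.12. The contrast with CLDN3 therefore depends on the 1 kb window. CLDN7 had a wide HCT116 peak of 3009 bp with a fold of 3.45, with its summit 257 bp downstream of an annotated start. A weaker CLDN7 peak beyond the other end, at a fold of 2.58, lay within 1 kb of an end of ELP5 as well. CLDN1 was the reverse case, with no HCT116 summit and a SW480 summit 1700 bp downstream of its start at a fold of 3.95.

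OCLN and TJP1 encode occludin, a membrane protein of tight junctions, and ZO-1, the scaffold beneath it. OCLN had a HCT116 summit 256 bp downstream of an annotated start at a fold of 3.97, from a peak 2469 bp wide, and HCT116 peaks farther inside the gene at folds of 3.87 and 4.92. TJP1, a gene of 269.7 kb on chromosome 15, had no gene-end summit in either line and carried 6 summits inside the gene in HCT116 and 3 in SW480. Of these, 3 HCT116 summits and 1 SW480 summit lay within 1 kb of annotated internal starts. The HCT116 summit of highest fold, 5.86, was 329 bp upstream of one such start. The SW480 summit at a fold of 3.34 was 66 bp upstream of another, inside the TJP1 window printed above, and overlapped a HCT116 peak whose summit was 417 bp away. Another pair of overlapping TJP1 peaks, with summits 307 bp apart, had folds of 3.73 in HCT116 and 3.93 in SW480. TJP1 was therefore the adhesion gene with overlapping peaks in both lines, at internal sites. CDH1 and CDH17, the epithelial and the liver-intestine cadherin, had no summit at an end or inside in either line. The nearest HCT116 summits lay 8177 bp from CDH1 and 6827 bp from CDH17, and the nearest SW480 summits 236682 bp and 209064 bp away.

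**Figure D2:**
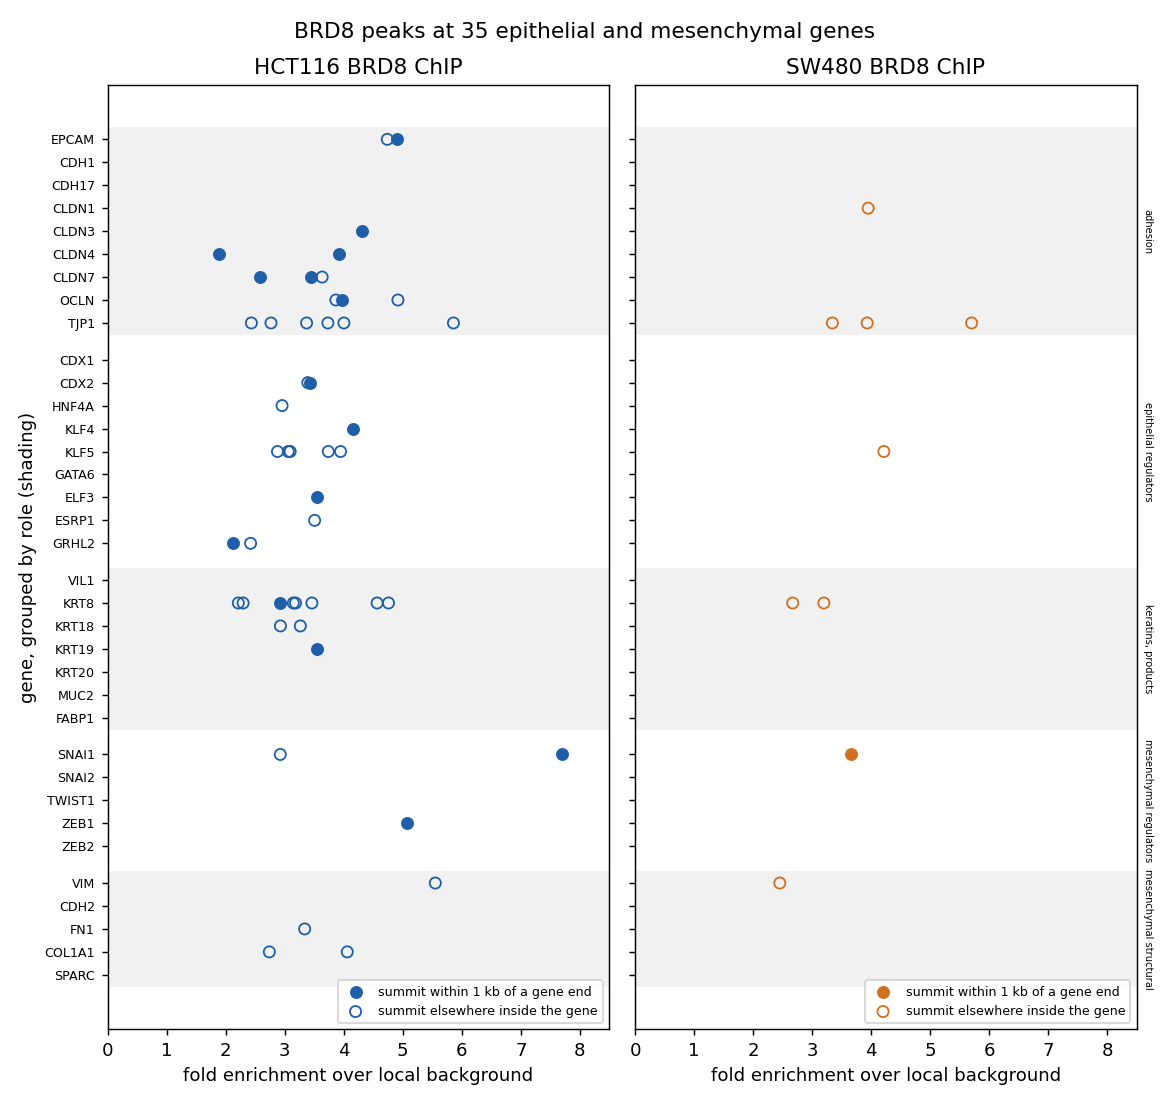
Fold enrichment of every BRD8 peak with a summit at a gene end (filled) or elsewhere inside the gene (open) of the 35 genes, grouped by role, in HCT116 (left) and SW480 (right). A peak inside KRT18 at the upper end of KRT8, which overlaps it, is drawn at both genes; SNAI1 has the highest fold, 7.69 in HCT116, and is the gene with a filled point in SW480.

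Among epithelial regulators, 4 of 9 had a gene-end summit in HCT116, near the 44.0% of all protein-coding genes, and 0 of 9 in SW480, against 22.1%. KLF4, a zinc finger factor of differentiated epithelium, had a HCT116 fold of 4.16, with the summit 683 bp downstream of the start. ELF3, an epithelial ETS factor, had 3.55 at a summit 261 bp upstream of its start, where ELF3-AS1 also has an end. CDX2, a homeobox regulator of intestinal identity, had 3.43 at 188 bp downstream of the start and 3.39 at 1095 bp. GRHL2, a regulator of epithelial junction genes, had the lowest gene-end fold of the group, 2.13, at a site within 1 kb of an end of GRHL2-DT. These 4 genes had all their summits in HCT116, and each fold was under the median of 4.87 over all genes with a HCT116 gene-end summit.

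Other regulators had summits inside the gene only. KLF5, a zinc finger factor of proliferating crypt cells on chromosome 13 (73054976 to 73077538), had 5 such summits in HCT116 with folds from 2.88 to 3.95, and 1 in SW480 at a fold of 4.21. Near its second annotated start, whose window is printed above, the HCT116 summit lay 184 bp downstream and the SW480 summit 636 bp upstream, in overlapping peaks. ESRP1, an epithelial splicing regulator, had a HCT116 peak 1368 bp inside the gene at a fold of 3.51. A stronger one at a fold of 6.12 (−log10 q 25.6) had its summit 1818 bp outside that end, within 1 kb of an end of LINC02894. This peak was 2873 bp wide and its region covered the ESRP1 end. HNF4A, a nuclear receptor of gut and liver, had 1 HCT116 summit 6051 bp downstream of its second start at a fold of 2.96, near MIR3646. CDX1, a relative of CDX2, and GATA6, a zinc finger factor of endoderm, had none in either line. The GATA6 gene lay 427271 bp from the nearest HCT116 and 426573 bp from the nearest SW480 summit.

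Keratins and differentiation products were divided. KRT8 and KRT18, partner keratins of simple epithelia, adjoin each other on chromosome 12, and the upper end of KRT8 in the gene table (52897191 to 52949860) lies inside KRT18. A HCT116 peak there, at a fold of 2.93, was counted at an end of KRT8 and inside KRT18. The only KRT8 start in the RefSeq promoter table lies inside the gene. Around it, HCT116 summits lay 642 bp upstream at a fold of 3.18 and 977 bp downstream at 3.46. SW480 summits lay 695 bp upstream at 3.20 and 426 bp downstream at 2.67. The upstream summits of the lines were 53 bp apart and the downstream ones 551 bp. KRT8 thus had overlapping peaks on both sides of that start in both lines, although its gene-end count was 0 in SW480. Other starts of KRT8 were not examined. Elsewhere inside KRT8, HCT116 peaks with summits 8172 bp and 10950 bp from the lower end had folds of 4.57 and 4.76. Neither overlapped a SW480 peak. KRT19 had a HCT116 gene-end fold of 3.55 and a stronger peak, at 5.47, 2004 bp outside that end. VIL1 (villin of the brush border), KRT20, MUC2 (the goblet cell mucin) and FABP1 (a fatty acid carrier of enterocytes) had no summit within 5 kb in either line. A summit at an end or inside was thus found at 3 of these 7 genes in HCT116 (42.9%, against 52.3% of all protein-coding genes). In SW480 KRT8 alone had one, 1 of 7 (14.3%, against 29.8%).

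**Figure D3:**
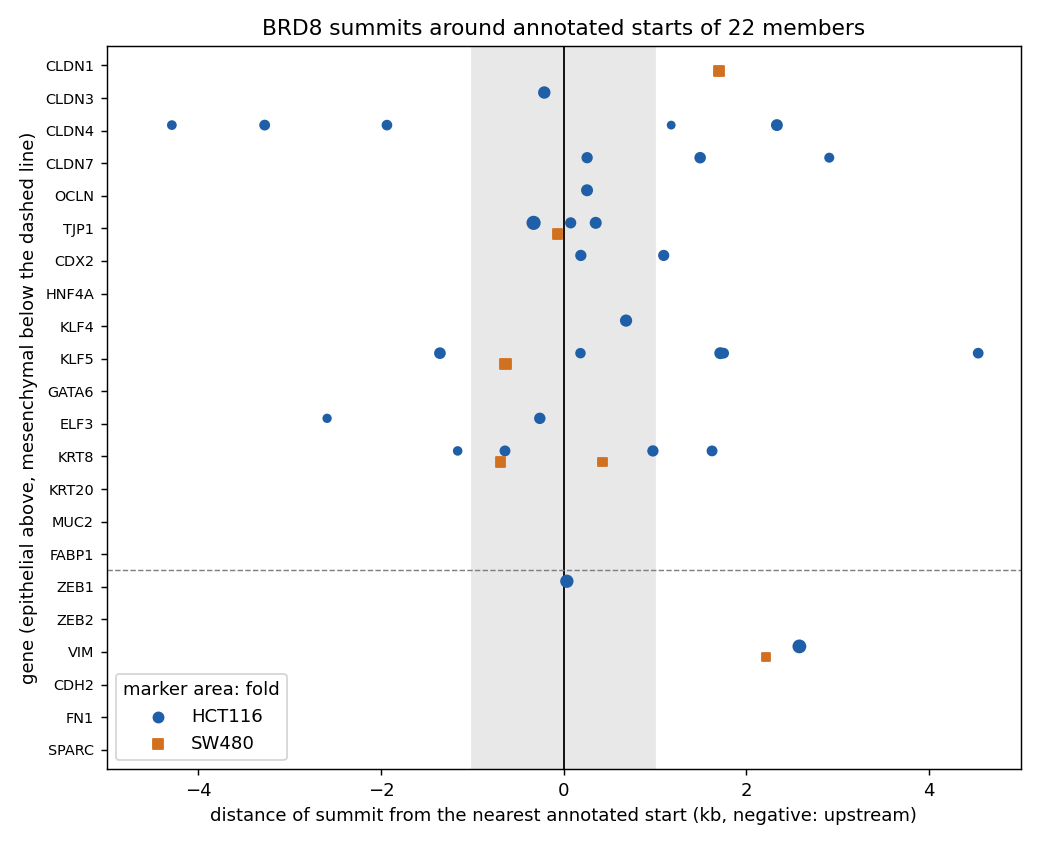
Distance in kb of each BRD8 summit within 5 kb from the nearest annotated start of the same gene, for the 22 members with a start in the RefSeq promoter table, in HCT116 (blue circles) and SW480 (orange squares), with marker area proportional to fold and 1 kb on either side shaded. In SW480 the shaded zone holds summits of TJP1, KLF5 and KRT8.

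The mesenchymal regulator SNAI1 had the strongest gene-end summits of the 35 genes. SNAI1, which encodes the zinc finger repressor Snail, lies on chromosome 20 (49982980 to 49988886). Its HCT116 summit was 227 bp and its SW480 summit 298 bp outside the lower end, 71 bp apart, in overlapping peaks. Fold was 7.69 in HCT116 and 3.65 in SW480, and −log10 q was 24.0 in HCT116 and 15.7 in SW480. The HCT116 fold was 2.11 times the SW480 fold, but the recovered fragment pileup at the summit was 45 in HCT116 and 70 in SW480, with local backgrounds of 4.98 in HCT116 and 18.4 in SW480. The lower SW480 fold thus went with a higher pileup over a higher background. These pileups are not scaled to library depth. A further HCT116 peak 3708 bp outside the same end had a fold of 7.20, and the SW480 list had no peak there.

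**Figure D4:**
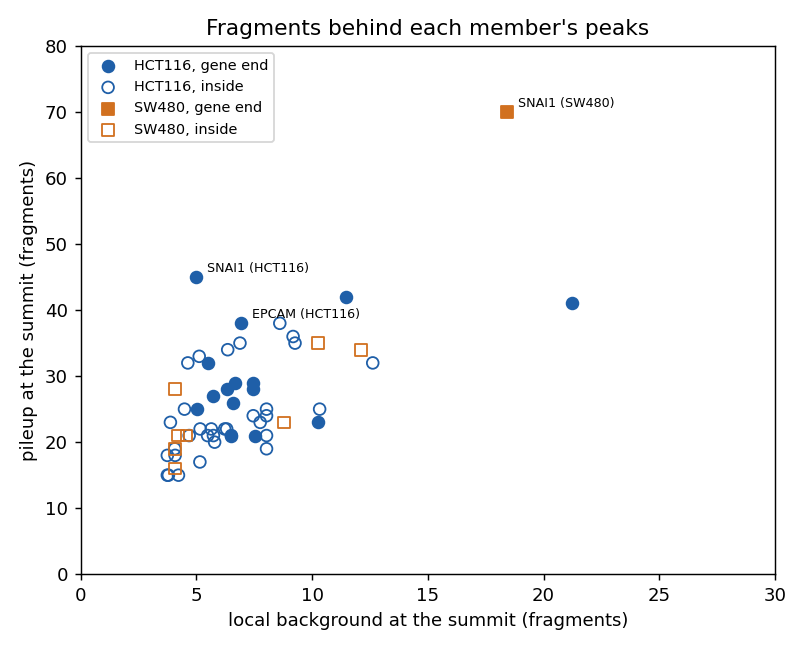
Fragments at the summit (y axis) against the local background (x axis), both recovered from the deposited fold and p, for each peak at a gene end (filled) or inside a member (open) in HCT116 (blue circles) and SW480 (orange squares). The SW480 peak of SNAI1 stands at 70 fragments over a background of 18.4, above every other member peak drawn.

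ZEB1, the other bound mesenchymal regulator, had a HCT116 summit 35 bp downstream of an annotated start on chromosome 10, at a fold of 5.08 (−log10 q 11.6), and no SW480 summit within 286158 bp of the gene. SNAI2, which encodes Slug, had no summit at an end or inside. A pair of overlapping peaks lay 2054 bp (HCT116) and 2035 bp (SW480) outside its upper end, with summits 19 bp apart and folds of 3.06 in HCT116 and 2.90 in SW480. TWIST1 and ZEB2 had no summit within 5 kb in either line.

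None of the 5 mesenchymal structural and matrix genes had a gene-end summit in either line, while 3 had one inside the gene in HCT116 (against 23.0% of all protein-coding genes) and 1 in SW480 (against 12.5%). VIM, the gene of the intermediate filament vimentin, had overlapping peaks 2580 bp (HCT116) and 2219 bp (SW480) downstream of its start, within 1 kb of an end of VIM-AS1. Its fold there was 5.55 in HCT116, with 33 fragments over a background of 5.12, and 2.45 in SW480, with 23 fragments over 8.79. COL1A1, which encodes a chain of type I collagen, had HCT116 summits 1634 bp and 2934 bp inside its upper end at folds of 4.06 and 2.74. FN1, the gene of the matrix protein fibronectin, had 1 HCT116 summit 25505 bp downstream of its start at 3.34. CDH2, the gene of N-cadherin, and SPARC, of a matrix glycoprotein, had none within 5 kb. CDH2 lay 1357443 bp from the nearest HCT116 and 3505976 bp from the nearest SW480 summit.

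Summits inside genes, away from the ends, were found at 15 of the 35 members in HCT116 and at 5 in SW480, against 23.0% (HCT116) and 12.5% (SW480) of all protein-coding genes. The member shares were 42.9% in HCT116 and 14.3% in SW480. In HCT116, 11 of 25 epithelial and 4 of 10 mesenchymal genes had one. The density was 1.76 HCT116 summits per 100 kb of member gene, against 0.669 over all protein-coding genes, and in SW480 it was 0.428 against 0.396. TJP1, KRT8 and KLF5 held 6, 7 and 5 of the 33 HCT116 summits inside members. Member genes had a median length of 17.8 kb, against 24.2 kb for all protein-coding genes. Counting a summit at an end or inside, 21 members were bound in HCT116 (60.0%, against 52.3% of all protein-coding genes) and 6 in SW480 (17.1%, against 29.8%).

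Binding at gene ends was shared between lines at 1 member, SNAI1, and found in HCT116 alone at 12, in SW480 alone at 0 and in neither at 22. Over all protein-coding genes these classes held 20.3% (both lines), 23.7% (HCT116 alone) and 1.81% (SW480 alone). Of all genes with a HCT116 gene-end summit, 46.1% also had one in SW480, against 1 of the 13 members. The 13 members were not typical in strength, as 10 had a fold and 11 a −log10 q below the HCT116 medians of 4.87 and 11.7. When summits inside the gene are counted too, 5 members had a summit in both lines (TJP1, KLF5, KRT8, SNAI1 and VIM), 16 in HCT116 alone and 1, CLDN1, in SW480 alone. Over all protein-coding genes 26.7% had such a summit in both lines. Of the 9 SW480 summits at or inside members, 7 belonged to a peak that overlapped a HCT116 peak by at least 1 bp. By place these were 1 of 1 gene-end peaks, against 88.7% over all protein-coding genes, and 6 of 8 inside peaks, against 32.8%. In the other direction, 1 of 15 HCT116 gene-end peaks of members overlapped a SW480 peak (6.67%, against 38.2%), and 7 of 33 inside peaks did (21.2%, against 15.5%). For all protein-coding genes, a peak at any gene's end was left out of the inside class. For members it was not, so the HCT116 peak at the upper end of KRT8, inside KRT18, is in both classes.

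Annotated starts gave another count in SW480. The promoter table held 22 of the 35 members, 16 epithelial and 6 mesenchymal. A summit lay within 1 kb of an annotated start at 9 of these 16 epithelial genes and 1 of these 6 mesenchymal genes in HCT116, and at 3 and 0 in SW480. All protein-coding genes in that table had shares of 47.7% in HCT116 and 25.1% in SW480. The SW480 genes were TJP1, KLF5 and KRT8, whose starts concerned lie more than 1 kb from the ends of the gene. SNAI1 is outside this count. Within 3 kb of the starts, 18 of 26 HCT116 summits of members lay downstream, 69.2% against 54.3% over all protein-coding starts, and in SW480 3 of 6 did, against 54.5%.

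The start windows of the members were compared in sequence. In HCT116, 17 member starts in 10 genes had a summit within 1 kb, with a median GC content of 68.0%, and 19 starts had none, with 59.0%. All protein-coding starts had 66.0% with a summit and 58.0% without. The ratio of observed to expected CpG was 0.721 and 0.557 at member starts, against 0.857 and 0.457 over all starts. The motif CAGGTG, on either strand, was present at 7 of the 17 starts with a summit (41.2%, in the genes OCLN, CLDN3, CLDN7, ELF3 and ZEB1) and at 3 of 19 without (15.8%). Over all protein-coding starts it was present in 18.1% and 21.5%. Neighbouring starts of 1 gene can share bases, as those of OCLN do, so the windows are not independent. GGGCGG was present at 64.7% of member starts with a summit and 52.6% without, against 73.2% and 43.1% over all starts. The ETS core CCGGAA was at 17.6% and 10.5%, against 33.7% and 11.4%. TATAAA was at 5.88% and 15.8%, against 4.64% and 13.2%, and AGATAA, read by GATA factors, at 5.88% and 5.26%, against 4.03% and 10.9%. No E-box shared bases with a GC box in the member windows, and a match is a string of letters, not a shown binding site.

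Other genes of these programmes, 100 in 5 lists, gave a wider view. Of 60 further epithelial genes, 22 had a gene-end summit in HCT116 (36.7%) and 7 in SW480 (11.7%). Of 40 further mesenchymal genes and genes of transforming growth factor beta signalling, 10 did in HCT116 (25%) and 5 in SW480 (12.5%). Both sets were below the shares of all protein-coding genes, 44.0% in HCT116 and 22.1% in SW480. Adherens junction, desmosome and polarity genes had the highest count, 15 of 22 in HCT116 (68.2%, against 44.0% of all protein-coding genes) and 5 of 22 in SW480 (22.7%, against 22.1%). CTNND1, p120-catenin, had folds of 6.81 in HCT116 and 4.55 in SW480. JUP, plakoglobin, and DSG2, a desmosomal cadherin, had HCT116 folds of 6.44 and 6.11 and no SW480 gene-end summit. CLDN12 had 5.99 in HCT116 and 3.91 in SW480. The further epithelial regulators had fewer, 3 of 20 in HCT116 (15%, against 44.0%) and 0 of 20 in SW480 (against 22.1%). Among them were KLF3 at 5.30 and HNF4G at 4.02 in HCT116. The members showed little of this gap, with 5 of 9 adhesion genes and 4 of 9 epithelial regulators in HCT116 and 0 of 9 of each in SW480.

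Further epithelial structure and differentiation genes had gene-end summits at 4 of 18 in HCT116 (against 44.0% of all protein-coding genes) and 2 of 18 in SW480 (against 22.1%). RAB25, a GTPase of epithelial trafficking, had a HCT116 fold of 5.45. EZR, the gene of the membrane linker ezrin, had 5.19 in HCT116 and 3.19 in SW480, and ST14, a membrane protease, had 3.76 in HCT116. KRT23 had 2.16 in HCT116 and 3.14 in SW480. The genes of transforming growth factor beta signalling had 5 of 12 in HCT116 (41.7%, near the 44.0% of all protein-coding genes) and 1 of 12 in SW480 (against 22.1%). SMAD2 and SMAD3, its transcriptional effectors, had HCT116 folds of 5.19 and 3.86, and TGFBR2, a receptor, had 3.79. SKIL, a repressor of SMAD activity, had 3.52 in HCT116 and 3.48 in SW480. Of 28 other mesenchymal genes, 5 had one in HCT116 (17.9%, against 44.0%) and 4 in SW480 (14.3%, against 22.1%). TCF3, an E-box factor, had 6.53 in HCT116 alone, while S100A4 had 4.37 in HCT116 and 2.70 in SW480. ACTA2, smooth muscle actin, had 3.90 in HCT116 and 3.34 in SW480.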

How the data were processed

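BRD8 ChIP-seq peaks of HCT116 and SW480 cells, 1 ChIP library per line, were analysed. Per the labels' protocols, cells were fixed with 1% formaldehyde, micrococcal nuclease sheared the chromatin, 2 µg of a polyclonal antibody was used, and reads were 150 bp at each end. Per the submitters' processing notes, Trimmomatic 0.33, Bowtie2 2.4.1, MACS2 and deepTools were used with GRCh38. Read filters are not stated, and the lists give no read totals, so depth is unknown. The deposited values are a fold (ratio of signal to local background), a −log10 p-value, a −log10 q-value, a score and a summit offset per peak. The score, per the deposited values 10-fold −log10 q without its decimals, was not used further.

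Summit positions are 1-based. Genes came from RefSeq (GRCh38.p14), which held all 35 members, and starts from its promoter table, which held 22. A gene's fold is that of its highest gene-end peak. Summit pileup and background were solved from fold and p (pileups up to 2999 fragments, relative tolerance 0.0001), with a solution for 99.991% (HCT116) and 99.977% (SW480) of peaks. Gene assignment and this step were tested on simulated data. Members, lists and alternatives were chosen with earlier results of these data known. The text names every member, and of each other list the 3 genes of highest HCT116 and 2 of highest SW480 gene-end fold, and genes with an end within 1 kb of a printed summit. Some genes that this rule picks are not reported here. Python 3.11.15, pandas 2.3.3 and scipy 1.17.1 were used.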

Additional observations from a re-analysis of the deposited data

Results flagged for a closer look

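The epithelial minus mesenchymal share of genes with a gene-end summit had opposite signs in the lines, 24 percentage points in HCT116 and −10 in SW480. Each line is 1 library, and the difference between them was not tested. With annotated starts alone the SW480 value was 18.8, over fewer members and without SNAI1, the gene behind the value of −10.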

How the results depend on the processing

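With a −log10 q of at least 2 or 5, with equal numbers of peaks in both lists, with windows from 500 bp to 5 kb, with any base of a peak in place of its summit, and with peaks nearest to a member's own end, the epithelial minus mesenchymal difference kept its sign in each line, from 6 to 32 percentage points in HCT116 and from −22 to −6 in SW480. Equal numbers of peaks trimmed the HCT116 list alone, so the SW480 value of −10 there repeats the main value. Except with the 5 kb window, the SW480 mesenchymal count in these settings was SNAI1 alone, with a −log10 q of 15.7. They were therefore little able to change the SW480 sign. Annotated starts alone cover 22 members and leave out SNAI1. There the difference was 39.6 in HCT116 and reversed to 18.8 in SW480 (3 of 16 epithelial and 0 of 6 mesenchymal genes). That setting also gave 1 mesenchymal gene in HCT116, 3 members in both lines and 7 in HCT116 alone. The 2 kb window gave 1 epithelial SW480 gene, 1 member in SW480 alone, 6 epithelial HCT116 genes with an inside summit and 13 further epithelial genes in SW480. The 5 kb window gave 5 mesenchymal HCT116 genes, 2 epithelial and 3 mesenchymal SW480 genes, 4 members in both lines and 1 in SW480 alone. Its inside counts were 5 epithelial and 1 mesenchymal in HCT116 and 2 and 0 in SW480, and 15 further epithelial genes were counted in SW480. The 500 bp window gave 5 further mesenchymal genes in HCT116 and 4 further epithelial genes in SW480. Inside counts in HCT116 were 7 epithelial and 2 mesenchymal with equal numbers of peaks, and likewise when −log10 q had to reach 5. In SW480 the mesenchymal inside count was 0 at a −log10 q of at least 2 or 5, and at 5 there were 3 further epithelial and 3 further mesenchymal genes. Fewer peaks enter the stricter settings, and a wider window takes summits from the inside class. For CLDN4 in HCT116 the peak nearest to the gene end had a fold of 1.89 in place of 3.92. No paired analysis was possible because each line has 1 ChIP library.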

Other observations

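Runs of peaks inside genes were seen at genes of the other lists. TGFBR2 had 12 summits inside the gene in HCT116 and 3 in SW480, EZR had 8 in HCT116 and 0 in SW480, and SMAD3 had 8 in HCT116 and 3 in SW480. These were the highest HCT116 counts among the 100 genes, and they were not scaled to gene length. In HCT116 an inside summit was found at 19 of the 60 epithelial genes and 10 of the other 40, against 23.0% of all protein-coding genes.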
